A study of Homo sapiens with 8 samples.

Results

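Replication-independent histone variants are the histones that cells make outside S phase, and their transcripts were followed here after RNA polymerase II was blocked with alpha-amanitin. The set was chosen by name, from the genes H1-10, H2AZ1, H2AZ2, H2AX, H2AJ, MACROH2A1, H3-3A and H3-3B. All 8 genes were measured, with 15 RefSeq transcripts in both deposited tables, out of 12480 genes and 19334 transcripts found in both. The cells were SW480, an established human colorectal adenocarcinoma line that the series text calls a breast cancer line. The groups were shRBMS1 cells at 9 h and at 0 h and shControl cells at 9 h and at 0 h, with 2 libraries in each of the 4 groups. The 9 h cells had received alpha-amanitin at 10 µg/mL and the 0 h cells no agent. All groups carried a stably expressed shRNA, and the labels' protocols name 1 clone against RBMS1 where the series text lists a pair. RBMS1 is an RNA-binding protein, and the series asked whether its knockdown changes RNA stability. The labels do not say whether the pair of libraries in a group came from different cultures.

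What the authors deposited was 1 log fold change per transcript and cell population, with the libraries already combined. It was read here as log2 and as 9 h over 0 h. Every value given below for a single transcript is the one in the authors' deposited table for that shRNA, and every value of a gene is a mean of such values. A value below 0 therefore means a smaller share of the RNA at 9 h, and a value above 0 a larger share than before the block. The tables hold neither read depth nor values per library, so no value below carries an error, no test was possible, and no difference between single values could be set against replicate error. The direction was read from the short-lived mRNAs of MYC, FOS and JUN, which in the authors' deposited tables lay between −1.38 and −0.81 in shRBMS1 cells and between −1.61 and −1.01 in shControl cells. The tables held no levels, so the knockdown could not be checked. Of 10 colon epithelial marker genes 5 were listed in both tables (EPCAM, KRT8, KRT18, CDH1 and CDX2, without KRT20, VIL1, CDX1, CDH17 and LGALS4), and of 10 markers of other cell types 3 were listed (ACTA2, CD68 and LYZ). In the authors' deposited tables the transcripts of RBMS1 itself lay at −0.35 and −1.38 in shRBMS1 cells and at 0.09 and −0.37 in shControl cells.

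Most histone mRNA in a cell in S phase comes from the clustered, replication-dependent genes, whose mRNAs have no poly(A) tail. They end in a conserved stem-loop instead, and they are degraded quickly when DNA synthesis stops. The replacement variants come from single genes outside the clusters, their mRNAs are mostly polyadenylated, and their proteins enter chromatin throughout the cell cycle. H3-3A and H3-3B encode the same protein, H3.3, which the HIRA and DAXX-ATRX chaperones deposit. H2AZ1 and H2AZ2 encode near-identical forms of H2A.Z, placed around promoters by the SRCAP and EP400 remodelers. H2AX is phosphorylated beside DNA breaks, MACROH2A1 carries a large macrodomain, H1-10 is a linker histone and H2AJ is an H2A variant reported to accumulate in senescent fibroblasts.

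H2AX is known to produce both a polyadenylated mRNA and a short stem-loop form, so its stem-loop is shown beside those of replication-dependent histones. A search of the GENCODE release 29 transcripts for the core histone stem-loop of 16 bases, on the transcript strand with any base allowed at 3 of its positions, found 1 match among the 15 transcripts of the variants, in H2AX. The match starts at base 50 of the 3′UTR of 1109 bases, at chr11:119094893-119094918 with its flanks (GRCh38, minus strand). Among 58 replication-dependent histone transcripts 24 held the motif, 41.4%. Of all other 18493 transcripts with a sequence 1 did, in NOP58. The 3 replication-dependent sites shown belong to the lowest, the middle and the highest of those 24 transcripts by their log2 fold change in shRBMS1 cells, H4C2 at chr6:26026896-26026921, H2BC4 at chr6:26123467-26123492 and H2AC25 at chr1:228457364-228457389, each on the minus strand. Capitals mark the motif. Stem-loops with other letters or transcripts annotated with a shorter end would be missed.
H2AX: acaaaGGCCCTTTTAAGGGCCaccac
H4C2: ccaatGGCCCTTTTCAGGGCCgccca
H2BC4: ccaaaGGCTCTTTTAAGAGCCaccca
H2AC25: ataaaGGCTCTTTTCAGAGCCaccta

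Most transcripts of the replication-independent variants had a somewhat larger share of the RNA after 9 h of alpha-amanitin than before. Of the 15, 10 lay above 0 in shRBMS1 cells and 10 in shControl cells, against 47.4% and 47.7% of all transcripts. Their median was 0.24 in shRBMS1 cells, beside −0.04 for all transcripts, and 0.28 in shControl cells, beside −0.04. A log2 fold change of −1 or less, a 2-fold smaller share, was found for 1 of the 15 in shRBMS1 cells, where 12.2% of all transcripts lay so low, and for 0 of 15 in shControl cells, again beside 12.2%. At 1 or more lay 1 of 15 in shRBMS1 cells and 1 of 15 in shControl cells, beside 7.13% and 6.63% of all transcripts. With so few transcripts, these shares are close to the background. H2AZ2 gives 5 of the 15 transcripts and MACROH2A1 3, and transcripts of 1 gene share exons, so they are not separate units.

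**Figure D1:**
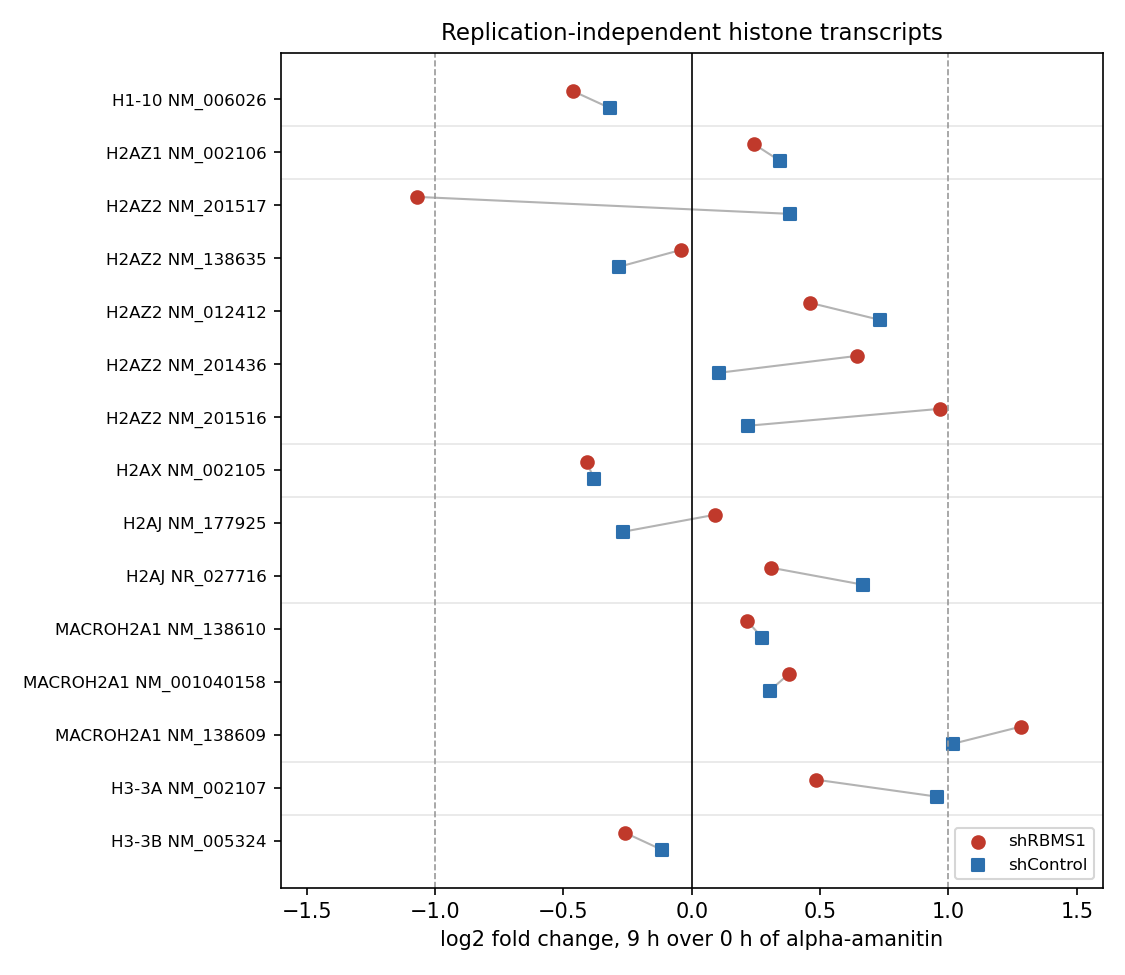
Log2 fold changes of the 15 transcripts of replication-independent histone genes, 9 h over 0 h of alpha-amanitin, with 1 deposited value per transcript and cell population (circles shRBMS1, squares shControl). Dashed lines mark a 2-fold change, and the largest gap between the cell populations is that of the H2AZ2 transcript NM_201517, at −1.07 in shRBMS1 cells and 0.38 in shControl cells.

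By gene, as the mean over the transcripts in both tables, MACROH2A1 was the highest in shRBMS1 cells at 0.62. It was followed there by H3-3A at 0.48, H2AZ1 at 0.24, H2AJ at 0.20 and H2AZ2 at 0.19, and then below 0 by H3-3B at −0.26, H2AX at −0.41 and H1-10 at −0.46. The order in shControl cells was H3-3A at 0.96, MACROH2A1 at 0.53, H2AZ1 at 0.34, H2AZ2 at 0.23, H2AJ at 0.20, H3-3B at −0.12, H1-10 at −0.32 and H2AX at −0.38. The same 5 genes lay above 0 in both cell populations and the same 3 below it. Of all genes, 45.9% lay above 0 in shRBMS1 cells and 45.7% in shControl cells. With so few genes the count is near that share, and the share of all genes keeping their sign was not counted. The first place of MACROH2A1 in shRBMS1 cells rests on its transcript NM_138609. By the median over transcripts MACROH2A1 was at 0.38 there, below H3-3A at 0.48 and H2AZ2 at 0.46. In shControl cells the median of MACROH2A1 was 0.30, below H3-3A at 0.96 and H2AZ1 at 0.34. Neighbours in either order could not be told apart, since their spread between libraries is unknown. No gene of the 8 reached 1 in size, beside 4.06% of all genes at 1 or more and 9.2% at −1 or less in shRBMS1 cells, and 3.49% and 9.74% in shControl cells. The gene medians were 0.20 in shRBMS1 cells and 0.22 in shControl cells, beside −0.06 and −0.07 for all 12480 genes. These levels are relative, and set against cytosolic ribosomal protein mRNAs the medians of the variants changed sign, to −0.18 in shRBMS1 cells and −0.20 in shControl cells.

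The replication-dependent histones lay far lower in both cell populations. Their 57 measured genes had a median of −1.67 in shRBMS1 cells and −1.69 in shControl cells. At −1 or less lay 51 in shRBMS1 cells and 50 in shControl cells, beside 9.2% and 9.74% of all genes. The median of the 8 variants was higher by 1.86 in shRBMS1 cells and by 1.90 in shControl cells on the log2 scale. The lowest variant was H1-10 in shRBMS1 cells and H2AX in shControl cells, with 25.4% and 30.6% of all genes below it. Of the replication-dependent genes, 55 of 57 and 56 of 57 lay lower. The exceptions were H2BC5 at −0.41 and H3C6 at −0.22 in shRBMS1 cells, and H3C6 at 0.38 in shControl cells. The value of H2BC5 is a mean of 2 transcripts that lay far apart in the authors' deposited table for shRBMS1, NM_021063 at −1.51 and NM_138720 at 0.70. H2AX, the only variant with the stem-loop motif, in the authors' deposited tables lay at −0.41 in shRBMS1 cells and −0.38 in shControl cells. The 24 replication-dependent transcripts with the motif had medians of −1.55 in shRBMS1 cells and −1.61 in shControl cells. The highest of these 24 in shRBMS1 cells, H2AC25, was at −0.67 in shRBMS1 cells and −0.61 in shControl cells. H2AX therefore lay closer to the medians of the 8 variants than to those of the 24, but nearer still to H2AC25. The deposited values do not separate the short stem-loop form of H2AX from its polyadenylated form. The RefSeq span of DPAGT1, a gene of the same strand, covers all of H2AX, while GENCODE release 29 keeps them apart. The listed DPAGT1 transcript in the authors' deposited tables lay at 0.30 in shRBMS1 cells and 0.29 in shControl cells, and its part in the H2AX value was not tested.

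**Figure D2:**
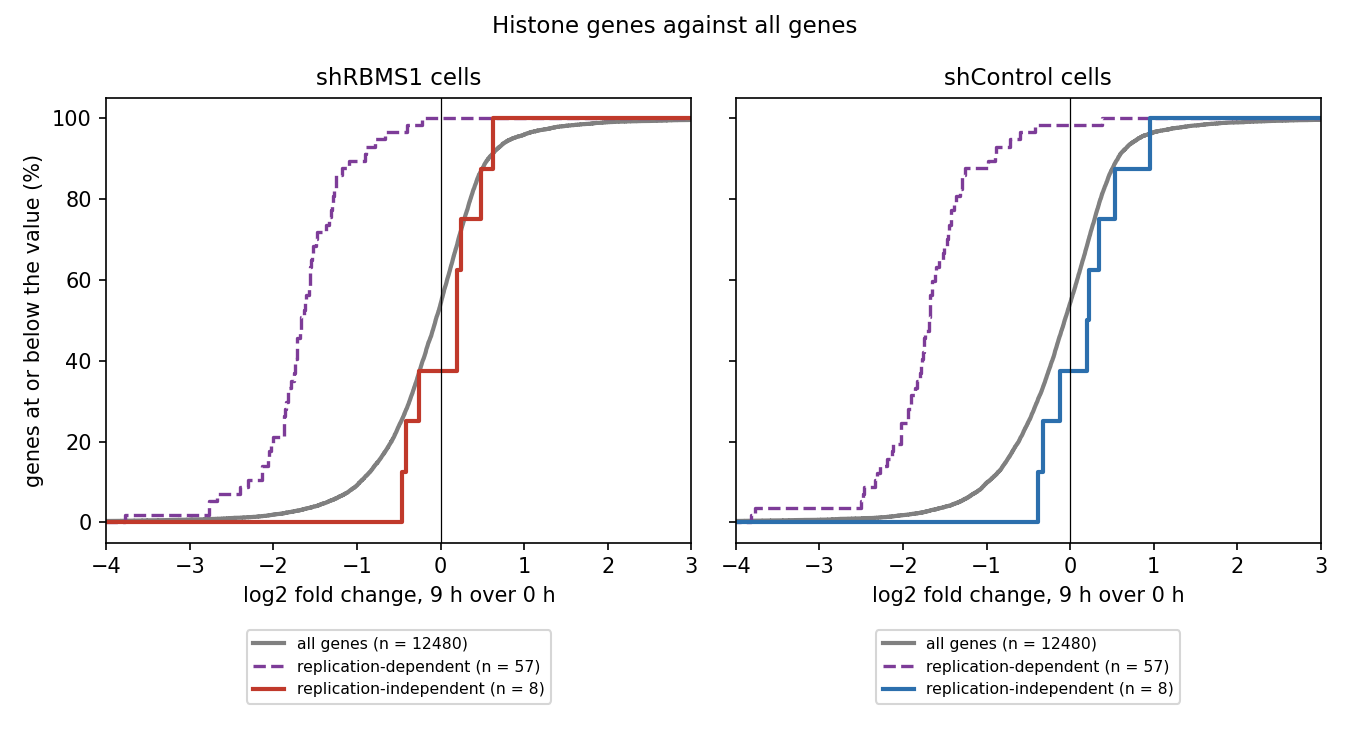
Percentage of genes at or below each log2 fold change, 9 h over 0 h, in shRBMS1 cells (left) and shControl cells (right), for all 12480 genes, 57 replication-dependent and 8 replication-independent histone genes. The dashed replication-dependent curve lies left of all genes, with medians of −1.67 in shRBMS1 cells and −1.69 in shControl cells, while the replication-independent steps run from −0.46 to 0.62 in shRBMS1 cells and from −0.38 to 0.96 in shControl cells.

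H3-3A (chr1:226061831-226072019) and H3-3B (chr17:75776434-75779779, GRCh38) encode the same protein, and their transcripts lay apart. In the authors' deposited tables H3-3A was at 0.48 in shRBMS1 cells and 0.96 in shControl cells. H3-3B was at −0.26 in shRBMS1 cells and −0.12 in shControl cells. H3-3A thus lay above H3-3B by 0.74 in shRBMS1 cells and by 1.07 in shControl cells on the log2 scale, in the same direction in both. Their coding sequences are identical at 323 of 411 bases, 78.6%. Of annotated pseudogenes, 7 were matched to H3-3A, with 1 of them in the deposited tables, and 2 to H3-3B. A lncRNA, H3-3A-DT, overlaps H3-3A, and whether the authors counted by strand is not stated.

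The mRNAs for H3.3 also differ outside the coding region. In GENCODE release 29 the 3′UTR has 520 bases in H3-3A and 2161 bases in H3-3B. ATTTA, the core of AU-rich elements that recruit decay factors, occurs 0 times in H3-3A and 7 times in H3-3B. Of 3′UTRs within 20% of the length, 53.6% (of 1647) hold it for H3-3A and 92.7% (of 1624) for H3-3B, and 31.6% of those near the length of H3-3B hold 7 or more. ATATA, an AU-rich core of the kind that RBMS proteins bind in vitro, occurs 1 time in H3-3A and 2 times in H3-3B, where 38.6% and 81.8% of 3′UTRs of like length hold it. These sites are shown because they are the only ATATA matches in the 2 mRNAs' 3′UTRs, with the motif in capitals and 10 bases on each side. The site of H3-3A lies at chr1:226071673-226071697 (plus strand), and those of H3-3B at chr17:75778053-75778077 and chr17:75776899-75776923 (minus strand).
H3-3A: tgaatttttaATATAaatgcggaga
H3-3B, first site: tagctattttATATAttgtagtatc
H3-3B, second site: aaaggatgcaATATAatgacccgct

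Of the 14 coding transcripts, the other one with ATATA in its 3′UTR was H2AZ2 NM_138635, with 3 matches, where 91.4% of 3′UTRs of like length hold at least 1. No coding transcript held TGTANATA, the element bound by Pumilio proteins. The share of 3′UTRs of like length with that element ran from 3.29% for the 166 bases of H2AJ to 49.5% for the 3353 bases of NM_138635. ATTTA occurred 6 times in NM_138635, 2 times each in MACROH2A1 NM_138610 and NM_001040158, and 1 time each in MACROH2A1 NM_138609, H2AZ1 and H2AX. It occurred 0 times in H1-10, the coding H2AJ transcript and the remaining H2AZ2 transcripts. The share of like-length 3′UTRs with it ran from 23.6% for H2AJ to 97.1% for NM_138635. Transcripts with it and transcripts without it lay on both sides of 0, and its relation to the values was not tested. All motifs were searched on the transcript strand only, and ATTTA and ATATA can overlap.

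H2A.Z is encoded by H2AZ1 (chr4:99948088-99950275), with 1 listed transcript, and H2AZ2 (chr7:44826889-44848126), with 5. In the authors' deposited tables H2AZ1 was at 0.24 in shRBMS1 cells and 0.34 in shControl cells. The H2AZ2 transcript of the same coding length, NM_012412, was at 0.46 in shRBMS1 cells and 0.73 in shControl cells. Both lay above 0 in both cell populations. Their coding sequences are identical at 311 of 387 bases, 80.4%. As gene means, H2AZ2 minus H2AZ1 was −0.05 in shRBMS1 cells and −0.11 in shControl cells on the log2 scale. Annotated pseudogenes are named after both, 6 after H2AZ1 and 1 after H2AZ2.

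The H2AZ2 mean hides transcripts that lay apart. NM_201516, which skips the exon of 130 bases, was in the authors' deposited tables at 0.97 in shRBMS1 cells and 0.22 in shControl cells. NM_201436, which lacks the exon of 78 bases, was at 0.64 in shRBMS1 cells and 0.11 in shControl cells. NM_138635, with a distal last exon and a 3′UTR of 3353 bases in place of 273, was at −0.04 in shRBMS1 cells and −0.28 in shControl cells. It was the lowest of the 5 in shControl cells and below NM_012412 in both populations. NM_201517 was at −1.07 in shRBMS1 cells and 0.38 in shControl cells, the only H2AZ2 transcript on opposite sides of 0. The range over the 5 transcripts was 2.04 in shRBMS1 cells and 1.02 in shControl cells. The 123 genes with 5 shared transcripts had median ranges of 2.28 in shRBMS1 cells and 1.96 in shControl cells, so the isoforms of H2AZ2 did not spread more than those of other such genes. The 5 share coding exons, and how the authors divided reads among isoforms is not stated.

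NM_201517 lacks an exon that all 4 other H2AZ2 transcripts carry, which shortens its coding region to 273 bases from the 387 bases of NM_012412. That exon of 114 bases, at chr7:44840899-44841012 (GRCh38, minus strand), is the sequence whose loss defines the transcript with the largest gap between the cell populations.
H2AZ2 exon: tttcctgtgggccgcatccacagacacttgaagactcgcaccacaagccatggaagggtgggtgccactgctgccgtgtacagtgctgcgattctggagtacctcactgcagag

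MACROH2A1 (chr5:135334381-135399887) had 3 listed transcripts, all above 0 in both cell populations. In the authors' deposited tables NM_138609 was at 1.28 in shRBMS1 cells and 1.02 in shControl cells, the highest of the 15 transcripts in each. NM_001040158 was at 0.38 in shRBMS1 cells and 0.30 in shControl cells. NM_138610 was at 0.21 in shRBMS1 cells and 0.28 in shControl cells. The order of NM_138609 above the other two held in both tables. The range of the difference between populations over the 3 was 0.32, beside a median of 1.66 over the 1015 genes with 3 shared transcripts, so the isoforms of MACROH2A1 differed little in it. The lncRNA PITX1-AS1 overlaps the gene.

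NM_138609 carries a different sixth exon from the other two, an exchange that lies in the macrodomain and is known to set whether it binds ADP-ribose metabolites. The exon is 91 bases long in NM_138609, at chr5:135350823-135350913, and 100 bases long in NM_138610 and NM_001040158, at chr5:135352946-135353045 (GRCh38, minus strand). They are shown because they are the main coding difference between the highest MACROH2A1 transcript and the others, and the 3 transcripts also differ at their ends.
NM_138609 exon: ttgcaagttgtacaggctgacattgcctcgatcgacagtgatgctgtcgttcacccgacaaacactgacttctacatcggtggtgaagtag
NM_138610 exon: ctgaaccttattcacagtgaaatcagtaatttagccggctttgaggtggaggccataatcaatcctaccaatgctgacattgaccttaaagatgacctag

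**Figure D3:**
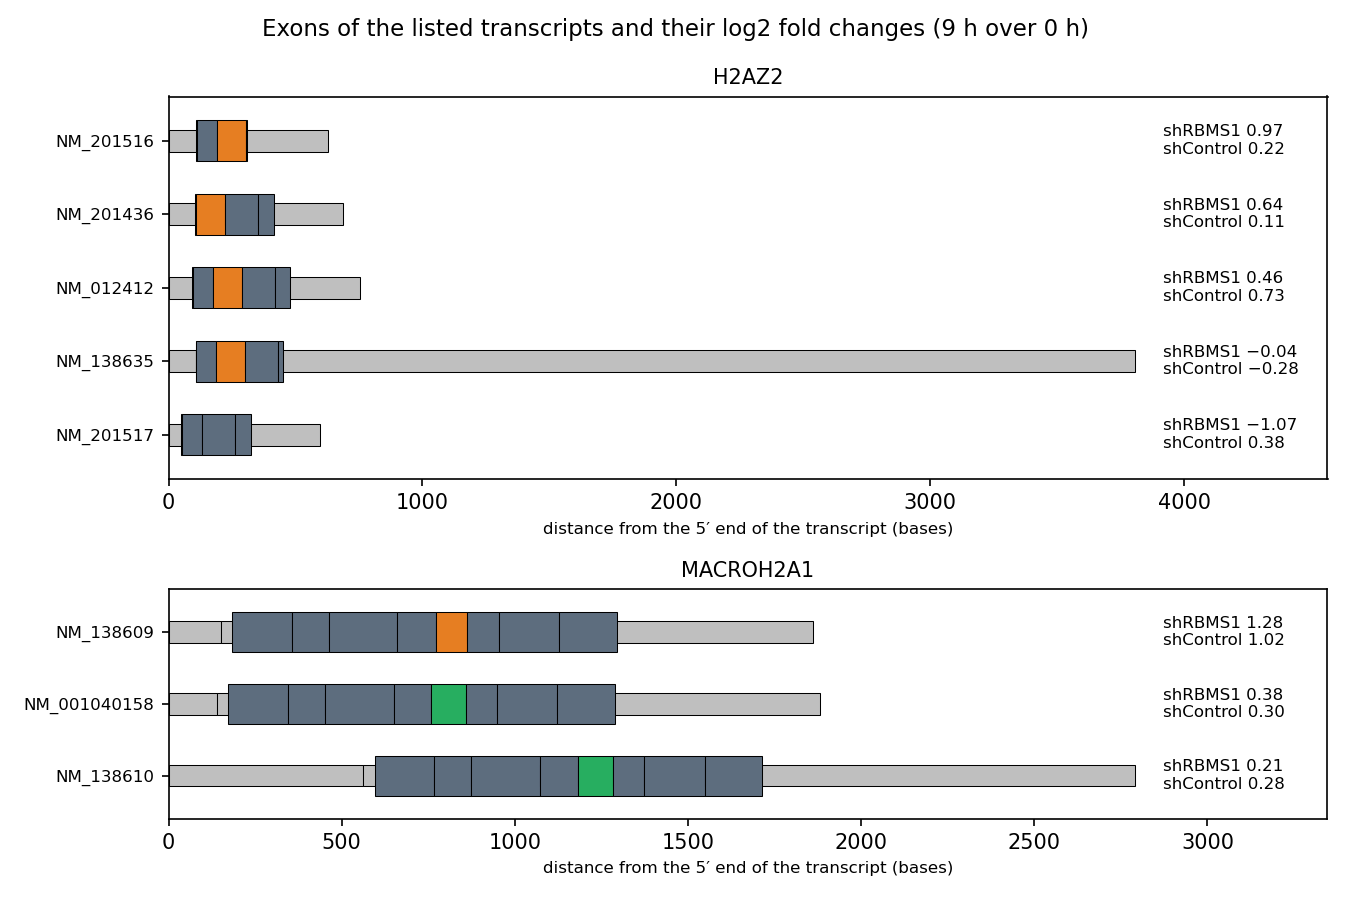
Exons of the listed H2AZ2 and MACROH2A1 transcripts along the transcript, in bases from the 5′ end, with thick boxes for coding and thin boxes for untranslated parts, and log2 fold changes 9 h over 0 h at the right. Orange marks the 114-base exon that H2AZ2 NM_201517 lacks and the 91-base exon of MACROH2A1 NM_138609, and green the 100-base exon of the other MACROH2A1 transcripts.

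H2AJ (chr12:14774405-14778002) was listed with a coding and a non-coding transcript. The coding NM_177925, of 1 exon, was in the authors' deposited tables at 0.09 in shRBMS1 cells and −0.27 in shControl cells. The non-coding NR_027716, whose first exon of 395 bases lies inside the coding transcript's exon and joins a second of 2712 bases, was at 0.31 in shRBMS1 cells and 0.67 in shControl cells. The non-coding transcript lay above the coding one in both populations. Their centred differences had opposite signs, 0.38 for the coding and −0.34 for the non-coding transcript, so the gene mean of 0.20 in each cell population describes neither. Reads from the shared exon cannot be assigned to either transcript by position alone.

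H1-10 (chr3:129314771-129316286) and H2AX (chr11:119093874-119095465) have 1 exon and 1 listed transcript each, and the lncRNA H1-10-AS1 overlaps H1-10 by 16 bases. H1-10 was in the authors' deposited tables at −0.46 in shRBMS1 cells and −0.32 in shControl cells, shares at 9 h of 0.725 and 0.801 times those at 0 h. H2AX was at −0.41 in shRBMS1 cells and −0.38 in shControl cells, ratios of 0.753 in shRBMS1 cells and 0.767 in shControl cells. In shRBMS1 cells 27.6% of all transcripts lay below H1-10 and 29.9% below H2AX, and in shControl cells 34.5% and 31.6%.

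Between the cell populations the variants differed little as genes. The difference, shRBMS1 minus shControl and centred on the median of all genes (−0.0168), had a median of −0.05 over the 8. It was above 0 for MACROH2A1 at 0.11 and H2AJ at 0.02, beside 50% of all genes by centring, and below 0 for 6 variants. H3-3A had the lowest at −0.45, which stood at the percentile 11.9 of all genes. The remaining values were −0.13 for H1-10, −0.13 for H3-3B, −0.09 for H2AZ1, −0.02 for H2AZ2 and −0.01 for H2AX. None of the 8 genes reached 1 in size, beside 4.87% of all genes at 1 or more and 4.16% at −1 or less. Of the 15 transcripts 1 did, NM_201517 of H2AZ2 at −1.43, beside 8.65% of all transcripts at −1 or less, and 0 lay at 1 or more, beside 8.98%. The count is near the background share.

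**Figure D4:**
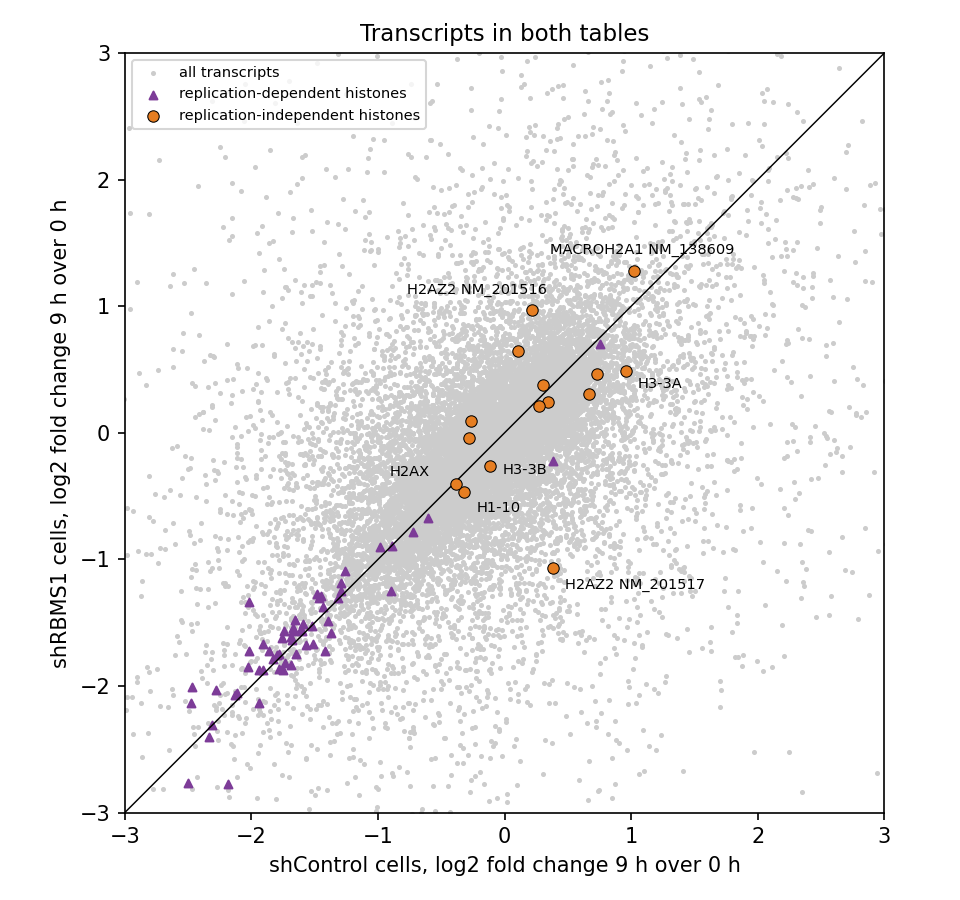
Log2 fold changes, 9 h over 0 h, of the transcripts in both tables, shRBMS1 cells on the vertical and shControl cells on the horizontal axis, with equal values on the line. The 836 transcripts beyond ±3 on either axis, 4.32%, are outside the plot, and of the replication-independent histones (circles) only H2AZ2 NM_201517 lies more than 1 from the line.

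With 2 values per gene, likeness to the variants is a weak measure. The protein-coding genes nearest to the medians of the 8, by the distance over both tables, were SF3A3 at 0.20 in shRBMS1 cells and 0.22 in shControl cells, SLC22A5 at 0.20 in shRBMS1 cells and 0.22 in shControl cells, and ESYT2 at 0.19 in shRBMS1 cells and 0.22 in shControl cells. Within 0.1 of that point lay 520 of 11324 protein-coding genes, 4.59%.

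Further replication-independent histone genes came from a named list of 13, of which 3 were in both tables and 2 are described. CENPA, the centromeric H3 variant, was at −2.19 in shRBMS1 cells and −1.41 in shControl cells as the mean of 2 transcripts, whose centred differences were −1.93 and 0.40. As a gene it lay below all 8 variants in both cell populations. MACROH2A2, the paralog of MACROH2A1, was in the authors' deposited tables at 0.19 in shRBMS1 cells and 0.24 in shControl cells.

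The proteins that place these variants were described from named lists, by counts and medians. The 28 histone chaperones had a median of 0.02 in shRBMS1 cells and −0.01 in shControl cells, and 2 of 28 lay at −1 or less in each, beside 9.2% of all genes in shRBMS1 cells and 9.74% in shControl cells. Their median centred difference was 0.01, with 1 at 1 or more, beside 4.87% of all genes, and 2 at −1 or less, beside 4.16%. These counts are near the background. DAXX, which brings H3.3 to heterochromatin, was at −0.05 in shRBMS1 cells and −1.57 in shControl cells as a mean of 4 transcripts, with centred differences that ran from −1.05 to 6.18. By the median over transcripts its centred difference was 0.51, against 1.54 by the mean, and no chaperone then lay at 1 or more. ATRX, its partner, was at −1.50 in shRBMS1 cells and −0.47 in shControl cells, on the other side. These are means of 2 transcripts, with centred differences of −1.42 and −0.60. ANP32E, which removes H2A.Z, was at −0.77 in shRBMS1 cells and 0.26 in shControl cells. UBN2, of the HIRA complex, was at −0.31 in shRBMS1 cells and −0.85 in shControl cells.

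The 21 subunits of the complexes that exchange H2A.Z, or act with them, had a median of −0.18 in shRBMS1 cells and −0.59 in shControl cells, with 4 of 21 in shRBMS1 cells and 6 of 21 in shControl cells at −1 or less, beside 9.2% and 9.74% of all genes. Their median centred difference was 0.08, with 2 at 1 or more, beside 4.87% of all genes, and 1 at −1 or less, beside 4.16%. By the median over transcripts the median centred difference was −0.03, with 3 at 1 or more and 0 at −1 or less. The 2 at 1 or more by the mean were SRCAP and EP400, each with 1 listed transcript. SRCAP was at −0.36 in shRBMS1 cells and −2.04 in shControl cells, and EP400 at 0.33 in shRBMS1 cells and −1.18 in shControl cells. DMAP1 was at −0.18 in shRBMS1 cells and 1.16 in shControl cells as a mean of 3 transcripts that ran from −5.92 to 1.40 in centred difference. Its centred difference was −1.32 by the mean over transcripts and 0.55 by the median. INO80, which also acts on H2A.Z, was at −1.63 in shRBMS1 cells and −1.04 in shControl cells.

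Of 15 genes that phosphorylate H2AX, dephosphorylate it or bind it at breaks, 13 were in both tables, with a median of −0.11 in shRBMS1 cells and −0.13 in shControl cells. The median of their centred differences was −0.03, with 1 of 13 at 1 or more, beside 4.87% of all genes, and 1 of 13 at −1 or less, beside 4.16%. MDC1, the reader of phosphorylated H2AX, was at −0.18 in shRBMS1 cells and −1.14 in shControl cells. PPP4C, a phosphatase subunit, was at 1.61 in shRBMS1 cells and 0.04 in shControl cells as a mean of 5 transcripts, and it was the gene at 1 or more. In the authors' deposited table for shRBMS1 its NM_001303504 was at 6.74 and its other 4 transcripts ran from −0.02 to 0.55. The centred differences of the 5 ran from 0.07 to 6.38, and by the median over transcripts PPP4C stood at 0.30, with no gene of the list at 1 or more. EYA2, a tyrosine phosphatase, was at −1.77 in shRBMS1 cells and −0.62 in shControl cells. The ubiquitin ligase RNF8 was at −0.09 in shRBMS1 cells and 0.57 in shControl cells as a mean of 2 transcripts that went opposite ways. In the authors' deposited tables its coding transcript was at 0.19 in shRBMS1 cells and −0.05 in shControl cells. Its non-coding transcript was there at −0.38 in shRBMS1 cells and 1.19 in shControl cells. A list of 19 genes drawn up for histone gene expression, mRNA processing and decay, which also holds YARS2, a mitochondrial tRNA synthetase, had medians of −0.42 in shRBMS1 cells and −0.52 in shControl cells, with 1 of 19 in shRBMS1 cells and 4 of 19 in shControl cells at −1 or less, beside 9.2% and 9.74% of all genes. The median centred difference of the 19 was 0.04, with 0 past 1 in either direction, beside 4.87% of all genes at 1 or more and 4.16% at −1 or less. Without YARS2, left out after the values were seen, the medians were −0.37 in shRBMS1 cells and −0.41 in shControl cells, and 0.09 for the centred difference, with the same counts. SLBP, which binds the stem-loop, was at −0.42 in shRBMS1 cells and −0.26 in shControl cells as a mean of 3 transcripts. TUT4, a terminal uridylyltransferase, was at −0.66 in shRBMS1 cells and −1.41 in shControl cells, and the cleavage factor scaffold SYMPK at 0.20 in shRBMS1 cells and −0.69 in shControl cells. YARS2 was at −0.77 in shRBMS1 cells and −0.54 in shControl cells.

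For the replication-dependent histones the median centred difference was 0.06, and 1 of 57 lay at 1 or more, beside 4.87% of all genes. That gene was H1-6, a testis linker histone, at −2.68 in shRBMS1 cells and −3.77 in shControl cells. H4C11 was at −1.34 in shRBMS1 cells and −2.02 in shControl cells, H3C13 at −2.77 in shRBMS1 cells and −2.19 in shControl cells, and H3C6 at −0.22 in shRBMS1 cells and 0.38 in shControl cells. The medians of the 2 histone families thus lay within 0.1 of the median of all genes in this difference, −0.05 for the variants and 0.06 for the replication-dependent genes.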

How the data were processed

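RNA of SW480 cells was depleted of ribosomal RNA and sequenced as 8 libraries, per the labels' protocols. The submitters' processing notes name STAR 2.5, Cufflinks and Cuffdiff, and hg38 as the build, without saying what each did. Per the file headers, the authors deposited for each shRNA a table of RefSeq accessions with a logFC, read here as log2 fold changes of 9 h over 0 h with libraries combined by the authors. Log2 was taken because that is what Cuffdiff writes, and neither base, direction, normalisation nor any filter is stated. No value exceeds 10 in size and none is 0, so transcripts were left out upstream by an unknown rule. The tables held 20474 (shRBMS1) and 21328 (shControl) transcripts. Depth per sample is unknown.

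Of 22468 accessions, 22132 were named by the RefSeq gene table (GRCh38.p14) and 205 by GENCODE release 29, and 131 without a symbol were left out of gene values. All 15 accessions of the variants were named by the RefSeq table. Transcripts in both tables were averaged per gene, and the difference was centred on the median of all genes, or of all transcripts (−0.0182) for single transcripts. A log2 size of 1 was counted. The joining and centring were tested on simulated data, with Python 3.11.15, pandas 2.3.3 and numpy 2.4.6. 3′UTRs and coding regions came from GENCODE transcripts matched by accession, whose ends can differ from RefSeq.

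The members and lists were chosen with earlier results of these data known. Genes named were the 8 variants and RBMS1, in each list the 2 highest and 2 lowest centred differences (of the 3 measured further variants, 1 is not reported here), and the 3 nearest genes. Alternatives were other centrings, medians over transcripts, coding accessions, all transcripts of a table, no extreme values and a smaller threshold.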

Additional observations from a re-analysis of the deposited data

How the results depend on the processing

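No paired analysis was possible because the deposited tables hold no values per library, and for the same reason no library could be left out. A shift of under 0.1 without a change of sign was counted as no change. Set relative to cytosolic ribosomal protein mRNAs, the medians of the variants turned to −0.18 in shRBMS1 cells and −0.20 in shControl cells, H2AZ1 to −0.13 in shRBMS1 cells and −0.069 in shControl cells, H2AZ2 to −0.18 in each, and H2AJ to −0.17 in shRBMS1 cells and −0.21 in shControl cells. The replication-dependent medians moved to −2.04 in shRBMS1 cells and −2.10 in shControl cells. Taken over transcripts as a median, the centred difference of H2AZ2 turned to 0.26. With coding accessions alone H2AJ turned to −0.27 in shControl cells and the median of the variants there moved to 0.056. Without centring the H2AJ difference was −7.05e-05, and relative to ribosomal protein mRNAs that of H2AZ2 was 0.0067 and that of H2AX 0.018. A threshold of 0.5 was passed by 4 transcripts and 1 gene in shRBMS1 cells, by 4 transcripts and 2 genes in shControl cells and by 3 transcripts in the difference, beside 42.9%, 43.5% and 33.6% of all transcripts and 36.3%, 37.5% and 23.1% of all genes. Without YARS2, an alternative chosen after seeing the data, the median of the histone mRNA processing list in shControl cells moved to −0.41. Of the 136 single-gene values recomputed, 113 moved by under 0.1, of which 3 changed sign, and of those that moved further 15 kept their sign and 8 changed it. Many of the 136 could not move further by construction. All 15 transcripts of the variants were in both tables, and none exceeded 5 in size, the limit for extreme values. Of the 8 genes, 5 had 1 transcript, whose median is its mean. Some centrings shifted all values by the same small amount. The count is therefore no measure of stability. Unknown depth means that transcripts with few reads cannot be recognised.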
